A study of Arabidopsis thaliana with 12 samples.

Results

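Drought changed the leaf expression of 1373 genes differently in WT Arabidopsis and in plants carrying the *MtPHD6* transgene, out of 19681 genes tested (6.98%). These genes were found with a single model of all 12 libraries of the series, by testing the drought response in *MtPHD6* plants (*PHD6*-drought minus *PHD6*-control) against that in WT plants (WT-drought minus WT-control). A gene was called when its Benjamini-Hochberg adjusted p from edgeR's quasi-likelihood test was under 0.05. The difference between these responses is given below as a log2 value, negative where the response was lower in *MtPHD6* plants and positive where it was higher. Expression is given as counts per 1000000 (CPM), after scaling for library composition.

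All plants were *Arabidopsis thaliana* Columbia (Col-0), and each of the 4 groups had 3 libraries from rosette leaves. WT-control and WT-drought plants carried no transgene. *PHD6*-control and *PHD6*-drought plants expressed *MtPHD6*, a plant homeodomain finger gene of the legume *Medicago truncatula*, from the vector pCAMBIA1301S; the promoter that drove it is not given in the sources used here, and neither is the transgenic line that each library came from. Drought plants lost their water supply at 12 days of age, for 7 d in the paper's text, whereas the sample records give 10 days for every library, the watered ones included. Replicates are described as biological. Leaf samples of each experiment came from several containers that each held many plants, and how these were pooled into the RNA-seq libraries is not given in the sources used here.

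Plant homeodomain fingers are small zinc-binding domains that read modifications on histone tails, and the Alfin1-like family to which *MtPHD6* belongs also binds DNA. Leaves that run short of water make abscisic acid, close their stomata and slow their growth, and growing cells depend on expansins and xyloglucan endotransglucosylase/hydrolases, which loosen and rebuild the cell wall. Several of the wall genes are also among the best known touch genes of Arabidopsis, which respond within minutes to bending, wounding, darkness or a change in turgor. A shortage of sugar, as in darkness, switches on a further set of genes that mobilise carbon reserves.

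The 12 libraries held 17839925 to 24717357 counts over named genes. *PHD6*-control replicate 3 resembled WT-drought replicate 1 (Pearson's r = 0.987 across genes, which are not independent replicates) more than its own group (0.982 on average), and WT-control replicate 3 resembled *PHD6*-control replicate 2 (0.981) more than its own group (0.978). *PHD6*-drought replicates 1 and 2 were each nearer to a WT-drought library (0.986 and 0.9875) than to their own group (0.984 and 0.9872). Leaf mesophyll markers summed to between 19110 and 34470 CPM. None of the 6 seed markers passed the filter on low counts, and 4 of 5 pollen markers and 6 of 7 root markers stayed under 1 CPM in every library. Flower markers summed to between 8.18 and 36.6 CPM, and no member of any of these tissue lists, or of the guard cell, phloem companion cell, trichome and senescence lists, had a called difference. In bulk leaves, fewer cells of a type and less RNA per cell cannot be told apart. The strand setting of the counting is not given in the sources used here, and a gene could hold reads of an overlapping antisense partner.

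Of the 1373 genes, 1102 had a lower drought response in *MtPHD6* plants (5.6% of the genes tested) and 271 a higher one (1.38%). The median difference was -1.03 for the lower genes and 0.78 for the higher genes, against 0.02 over all genes tested. The difference exceeded 2-fold for 577 of the lower and 86 of the higher genes. At an unadjusted p under 0.05 there were 3398 genes, and 3.68% of all genes were lower and 0.95% higher by a fold over 2 with such a p. Nearest to the threshold, *NHL1* (adjusted p = 0.0498) and *PSK2* (0.0498) fell just inside, and AT3G04220 and AT1G11630 (both 0.05004) just outside. Upper-quartile scaling moved the split to 1006 lower and 491 higher genes, so that 67.2% of calls were lower in place of 80.3%, and it moved the median over all genes to 0.09. The higher count rested more on single libraries: it was 140 without WT-drought replicate 1, 169 without *PHD6*-drought replicate 2 and 174 without *PHD6*-control replicate 3. Without both *PHD6*-control replicate 3 and WT-drought replicate 1, the counts were 691 lower and 82 higher.

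**Figure D1:**
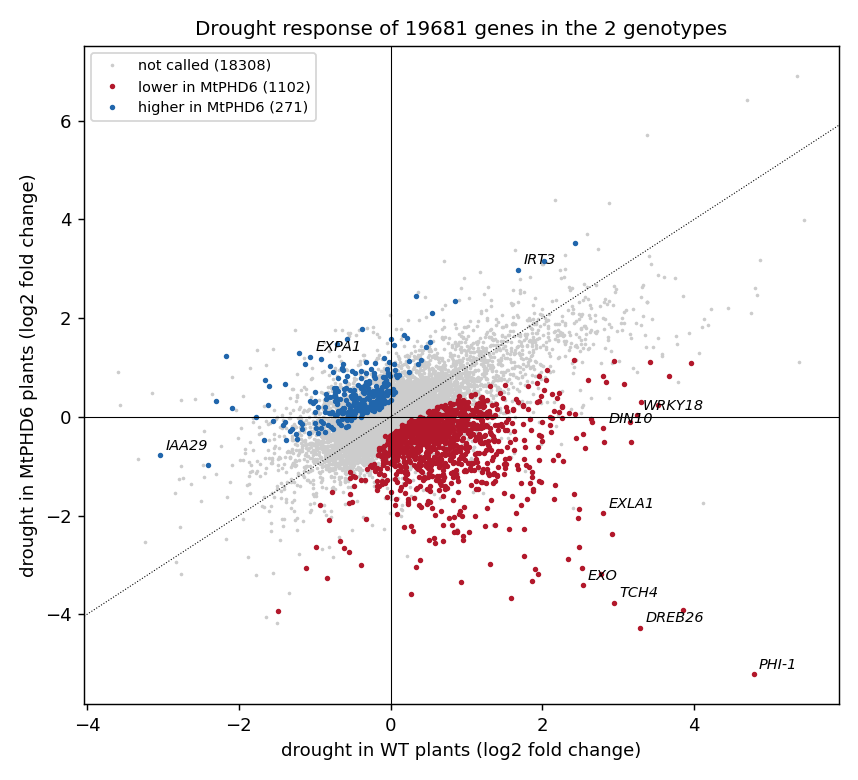
Drought response of each tested gene, as a log2 fold change, in WT plants (x axis) and in *MtPHD6* plants (y axis); red points are the 1102 genes with a lower and blue points the 271 genes with a higher response in *MtPHD6* plants, grey points were not called, and the dotted line marks equal responses. The red points fill the quadrant in which genes went up in WT plants and down in *MtPHD6* plants, with *PHI-1* at its far corner.

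The lower genes fell into 3 main patterns when drought was also tested within each genotype on the same libraries. In 416 of them (37.7%) expression rose in WT plants and was not called in *MtPHD6* plants. In 342 (31%) it rose in WT plants and fell in *MtPHD6* plants, a pattern found in 1.74% of all genes tested. In 296 (26.9%) it was not called in WT plants and fell in *MtPHD6* plants. The others were 24 genes that rose and 13 that fell in both genotypes, and 11 called in neither. Over all genes tested, drought raised 13% and lowered 8.59% in WT plants, and raised 11.7% and lowered 14% in *MtPHD6* plants (21.6 and 25.7% in either direction). In both genotypes 1076 genes rose, of which 29 had a called difference, and 839 fell, of which 21 had one.

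The higher genes were fewer and mirrored this. In 111 (41%) expression fell in WT plants and was not called in *MtPHD6* plants, in 107 (39.5%) it was not called in WT plants and rose in *MtPHD6* plants, and in 33 (12.2%) it fell in WT plants and rose in *MtPHD6* plants, against 0.168% of all genes tested for this last pattern. The remainder were 8 genes that fell and 5 that rose in both, and 7 called in neither. These smaller counts moved with single libraries. Leaving out WT-drought replicate 1 turned the 111 into 55 and the 33 into 20, and leaving out *PHD6*-control replicate 3 turned the 111 into 67. The 107 became 58, 69, 65, 67, 59 and 59 without WT-drought replicate 1, *PHD6*-control replicates 1, 2 and 3, and *PHD6*-drought replicates 2 and 3, in this order.

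A difference of 2 responses rests on 4 groups, and the watered plants held much of it. Of the 1102 lower genes, 771 (70%) were called higher in *PHD6*-control than in WT-control (6.41% of all genes tested were), and 498 (45.2%) lower in *PHD6*-drought than in WT-drought (3.25% of all). Both held for 292 genes, only the first for 479, only the second for 206 and neither for 125. The median log2 difference between the genotypes was 0.61 in watered plants and -0.41 under drought. Of the 271 higher genes, 159 (58.7%) were called lower in *PHD6*-control than in WT-control (1.71% of all) and 57 (21%) higher in *PHD6*-drought than in WT-drought (1.52% of all). Over all genes tested, 8.12% were called between the genotypes in watered plants and 4.77% under drought, in either direction. These shares come from the contrast that chose the genes and are a description of them.

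In the 342 genes that rose in WT plants and fell in *MtPHD6* plants, the median level relative to the WT-control mean was 0.93, 0.61 and 0.64 (log2) in the WT-drought libraries. It was 0.84, 0.85 and 1.00 in the *PHD6*-control libraries and 0.12, 0.22 and 0.10 in the *PHD6*-drought libraries. By these medians, watered *MtPHD6* leaves stood near the level of droughted WT leaves, and droughted *MtPHD6* leaves near that of watered WT leaves. Single genes departed from this, as values given below show. In 361 of the 375 genes with opposite calls in the 2 genotypes, the libraries did not overlap between drought and control in either genotype (3.35% of all genes tested had such libraries and means that moved in opposite directions). The calls chose these genes from the same libraries, so this is a description of them. WT-drought replicate 1 and *PHD6*-control replicate 3 had the highest medians of their groups, and the other libraries of both groups lay on the same side.

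**Figure D2:**
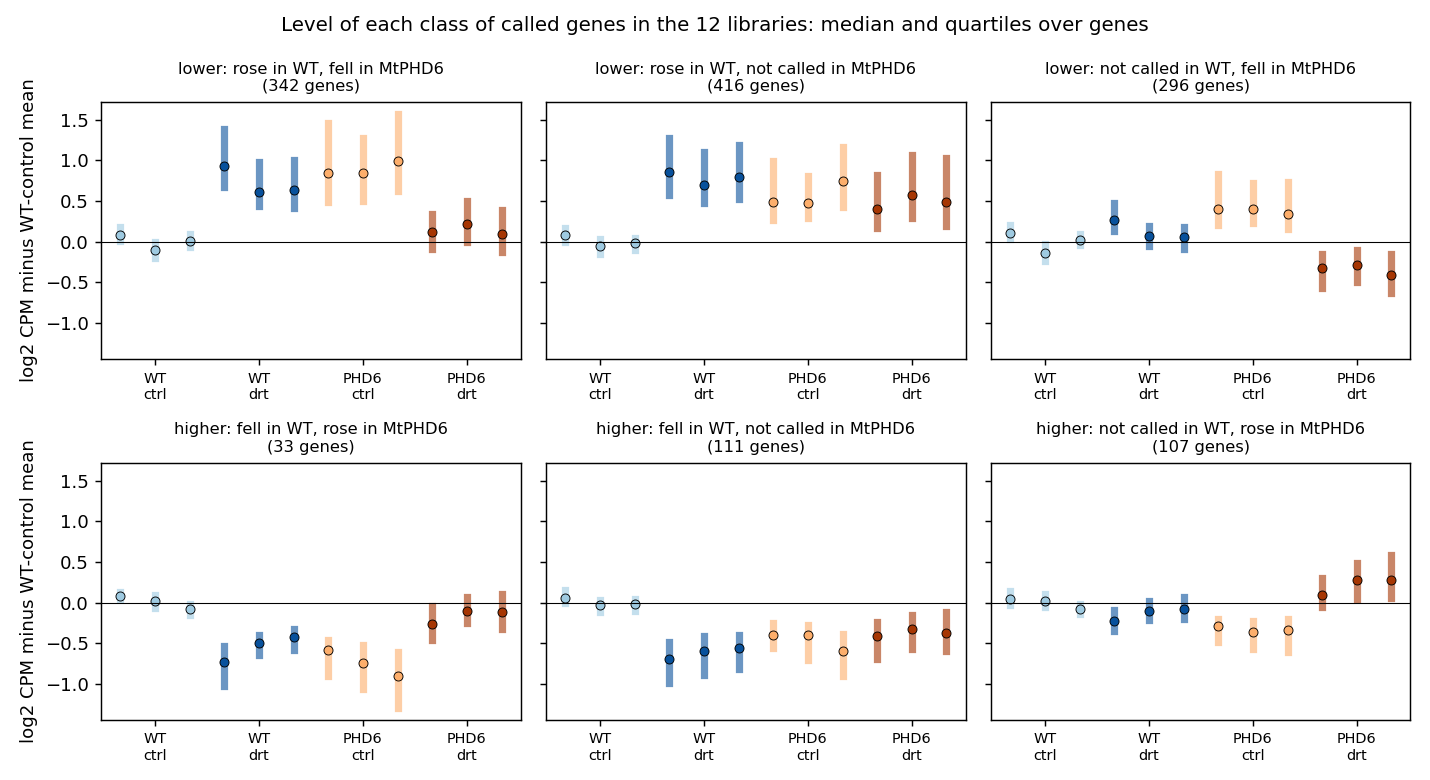
Median level of each pattern of called genes in the 12 libraries, as log2 CPM minus the WT-control mean of each gene (y axis), with 3 libraries for each of the 4 groups (x axis; ctrl, control; drt, drought); points are medians over genes and bars their quartiles. In the upper left panel the 3 WT-drought and 3 *PHD6*-control medians lie between 0.61 and 1.00, and the *PHD6*-drought medians between 0.10 and 0.22.

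The start regions of 5 genes are shown because these genes carry the largest or the most regular differences among wall and *EXORDIUM* genes: *PHI-1*, *TCH4*, *EXO* and *EXLA1*, which were lower, and *EXPA1*, which was higher. Each is the 250 bases before the annotated start of the gene, 5′ to 3′ on the strand of the gene, from the RefSeq genome sequence of the build TAIR10.1. Capitals mark any of 6 short motifs searched on both strands: CGCGTT (the rapid stress response element, bound by calcium-dependent CAMTA factors), TTGACC or TTGACT (the W box, bound by WRKY factors), AATATCT (the core of the evening element), CACGTG (the G box), ACGTGTC (an abscisic acid response element) and TATCCA (a sugar response motif).
PHI-1 (chr1:12851733-12851982, plus strand): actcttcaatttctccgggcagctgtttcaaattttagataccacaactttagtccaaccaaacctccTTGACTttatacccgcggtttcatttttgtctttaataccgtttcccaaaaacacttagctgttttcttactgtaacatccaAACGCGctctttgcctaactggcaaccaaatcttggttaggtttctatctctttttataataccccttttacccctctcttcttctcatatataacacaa
TCH4 (chr5:23308681-23308930, minus strand): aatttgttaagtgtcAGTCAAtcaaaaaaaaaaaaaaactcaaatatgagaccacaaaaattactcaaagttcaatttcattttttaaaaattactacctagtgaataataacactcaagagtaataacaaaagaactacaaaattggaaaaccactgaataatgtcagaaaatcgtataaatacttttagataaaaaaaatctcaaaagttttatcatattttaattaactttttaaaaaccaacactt
EXO (chr4:5739969-5740218, plus strand): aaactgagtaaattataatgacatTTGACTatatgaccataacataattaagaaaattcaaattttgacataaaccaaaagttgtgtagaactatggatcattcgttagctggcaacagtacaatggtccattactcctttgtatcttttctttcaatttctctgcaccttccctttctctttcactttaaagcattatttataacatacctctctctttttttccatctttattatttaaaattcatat
EXLA1 (chr3:16895916-16896165, plus strand): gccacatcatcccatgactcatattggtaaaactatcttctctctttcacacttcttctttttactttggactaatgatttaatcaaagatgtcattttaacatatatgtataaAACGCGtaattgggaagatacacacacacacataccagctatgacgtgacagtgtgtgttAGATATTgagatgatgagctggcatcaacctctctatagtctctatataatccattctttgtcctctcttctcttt
EXPA1 (chr1:26141476-26141725, plus strand): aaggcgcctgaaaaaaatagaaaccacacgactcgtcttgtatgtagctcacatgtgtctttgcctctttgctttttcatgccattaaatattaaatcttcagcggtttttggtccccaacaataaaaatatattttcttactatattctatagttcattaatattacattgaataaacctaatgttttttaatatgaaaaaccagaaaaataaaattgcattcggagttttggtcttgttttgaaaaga

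In *PHI-1* the capitals are a W box 182 bases and the reverse complement of CGCGTT 100 bases before the start. *TCH4* holds a W box in reverse complement 235 bases before its start, and *EXO* one 226 bases before. *EXLA1* holds the reverse complements of CGCGTT and of the evening element core, 136 and 76 bases before its start, and *EXPA1* none of the motifs. Over all 19669 tested genes with such a region, CGCGTT stood in 2.86%, against 5.995% of the lower genes (66 of 1101) and 1.11% of the higher genes (3 of 271). Its share was 7.71% in the genes that rose in WT plants only, 5.74% in those that fell in *MtPHD6* plants only and 4.09% in those that did both. The W box stood in 28.1% of all regions, 32.7% of those of lower genes and 22.9% of those of higher genes. Among all genes that rose with drought in WT plants, whether or not their response differed, its share was 37.7%, and that of CGCGTT 4.54%. The W box was in 8 of the 12 genes with the lowest differences and 0 of the 12 with the highest. The G box was in 7.24, 8.17 and 7.01%, the abscisic acid response element in 4.14, 4.45 and 2.95%, the evening element core in 10.2, 12.6 and 10.7% and the sugar response motif in 14.2, 16.8 and 14.8% of all, lower and higher genes. A match is a description of these letters and not a bound site.

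Cell wall genes were among those with the largest differences. Of 43 tested expansins and xyloglucan endotransglucosylase/hydrolases, 19 had a lower drought response in *MtPHD6* plants (44.2%, against 5.6% of all genes). A higher one was called in 1 (2.33%, against 1.38% of all genes), and in 2 without WT-control replicate 2, *PHD6*-control replicate 1 or *PHD6*-drought replicate 1. Drought changed 12 members in opposite directions in the 2 genotypes. Over all genes, 1.74% rose in WT and fell in *MtPHD6* plants, and 0.168% did the reverse. The median of the list was -0.70. *TCH4* (AT5G57560, chromosome 5 from 23307006 to 23308680 in TAIR10.1) encodes a xyloglucan endotransglucosylase/hydrolase that responds to touch. Its expression was 22.7, 21.8 and 31.9 CPM in WT-control, 348, 130.4 and 109.7 in WT-drought, 537, 402 and 579.8 in *PHD6*-control and 38.6, 39.8 and 33.4 in *PHD6*-drought. Every WT-drought library was above every WT-control library, and every *PHD6*-drought library below every *PHD6*-control library. Drought changed *TCH4* by 2.95 (log2) in WT plants and -3.76 in *MtPHD6* plants, a difference of -6.71 (standard error 0.53, adjusted p = 2.23e-05).

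*EXLA1*, an expansin-like gene (AT3G45970, chromosome 3 from 16896166 to 16897308), had the smallest p of all genes tested. It measured 23.4, 17.3 and 21.0 CPM in WT-control, 184, 116 and 129.7 in WT-drought, 168, 148 and 169 in *PHD6*-control and 34.6, 54.9 and 36.1 in *PHD6*-drought. WT-drought and *PHD6*-control overlapped each other and stood clear of both other groups, and *PHD6*-drought stayed above WT-control. The difference was -4.75 (standard error 0.29, adjusted p = 1.19e-05). Its paralogs went the same way: *EXLA2* averaged 11.03 ± 0.543 CPM in WT-control, 17.8 ± 2.58 in WT-drought, 27.1 ± 1.07 in *PHD6*-control and 8.87 ± 1.74 in *PHD6*-drought (mean ± SD, n = 3; difference -2.30, adjusted p = 2.69e-05 from edgeR), and *EXLA3* had a difference of -3.00.

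Other wall enzymes of the list followed. *XTH33* (-4.35), *XTR6* (-3.38), *XTH18* (-3.34), *XTH30* (-3.03), *XTH16* (-2.21) and *EXGT-A3* (-1.92) rose in WT plants and fell in *MtPHD6* plants. *XTH25* (-3.00), *XTH15* (-2.48) and *XTH24* (-1.25) rose in WT plants and were not called in *MtPHD6* plants. *XTH4*, with 390.3 ± 22.1 CPM in WT-control, 644 ± 84.3 in WT-drought, 663 ± 55.6 in *PHD6*-control and 459 ± 42.5 in *PHD6*-drought, had a smaller difference (-1.25, adjusted p = 0.000250). *XTH17* fell in both genotypes, by 1.11 (log2) in WT plants and by 3.05 in *MtPHD6* plants.

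*PHI-1* (AT1G35140, chromosome 1 from 12851983 to 12853235) had the lowest difference of all named genes, -9.99 (standard error 0.76, adjusted p = 1.83e-05). It belongs to the EXORDIUM family of secreted proteins, whose founding member promotes leaf growth and responds to brassinosteroid. Its expression was 1.88, 1.40 and 2.75 CPM in WT-control, 106, 32.3 and 25.2 in WT-drought, 144, 102 and 154 in *PHD6*-control and 3.42, 4.64 and 2.57 in *PHD6*-drought. The gene was close to silent in watered WT and in droughted *MtPHD6* leaves and expressed in the other 2 groups, whose libraries were all above them. The founding member, *EXO* (AT4G08950, chromosome 4 from 5740219 to 5741591), measured 17.4, 24.9 and 32.1 CPM in WT-control, 256, 97.6 and 75.4 in WT-drought, 322, 282 and 404 in *PHD6*-control and 35.4, 34.2 and 24.8 in *PHD6*-drought. Its control and drought libraries were apart in both genotypes too, and its difference was -5.94 (standard error 0.56, adjusted p = 4.62e-05).

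The EXORDIUM family was looked at as a whole after these values had been seen. Of its 7 tested members, 5 were lower (71.4%, against 5.6% of all genes) and 0 higher (1.38% of all genes), with a median of -2.65. Besides *PHI-1* and *EXO* these were *EXL5* (-3.00), *EXL3* (-2.65) and *EXL2* (-1.73). *EXL3* (here EXORDIUM like 3, AT5G51550) measured 88.5, 103 and 102 CPM in WT-control, 365, 278 and 289.9 in WT-drought, 244, 297 and 319 in *PHD6*-control and 161, 154 and 121 in *PHD6*-drought. In both genotypes its drought and control libraries did not overlap, and *PHD6*-drought stayed above WT-control. The difference had an adjusted p of 1.83e-05.

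**Figure D3:**
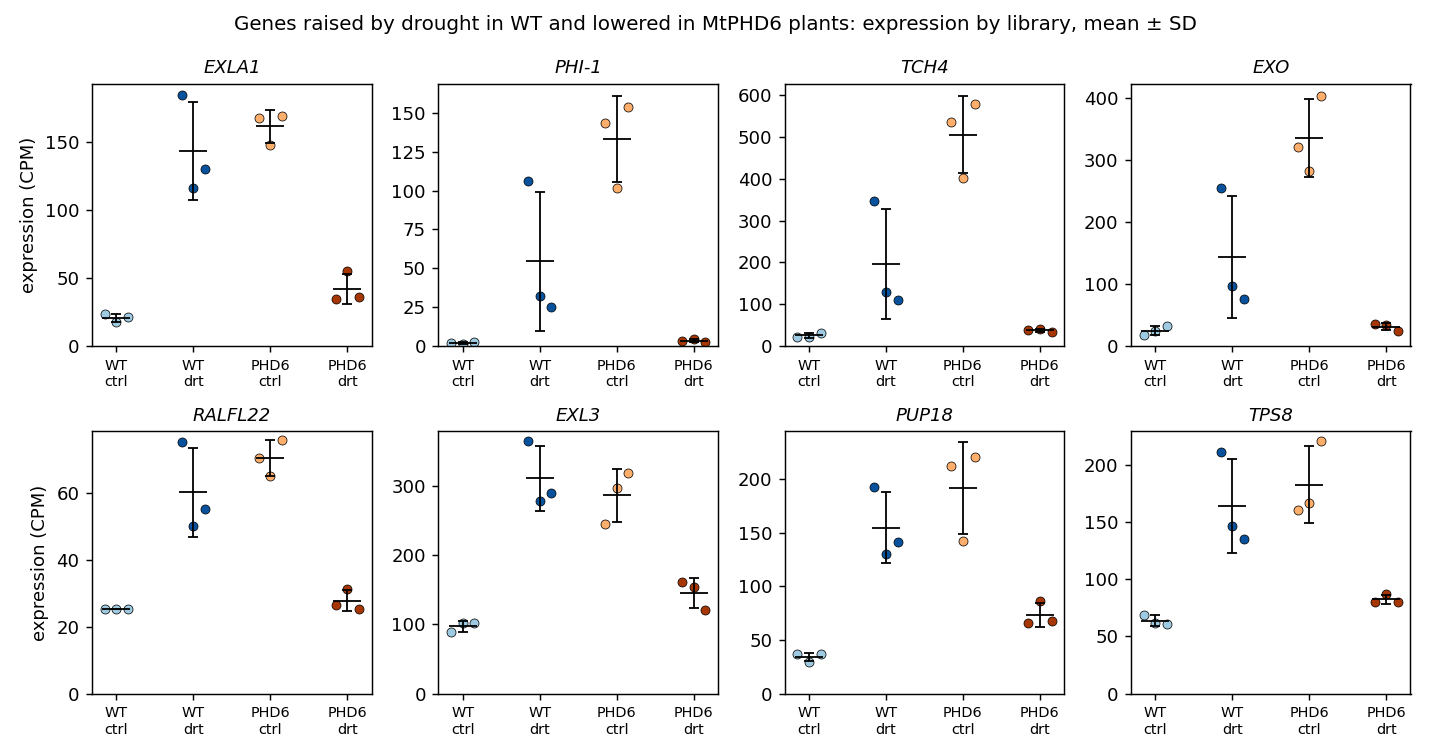
Expression (CPM, y axis from 0) of 8 genes that rose with drought in WT plants and fell in *MtPHD6* plants, in each library (points) of the 4 groups (x axis; ctrl, control; drt, drought), with the mean and SD of 3 libraries (lines). In every panel WT-drought and *PHD6*-control lie above WT-control and *PHD6*-drought; for *PHI-1* the *PHD6*-drought libraries lie between 2.57 and 4.64 CPM and the *PHD6*-control libraries between 102 and 154 CPM.

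Genes of the response to touch, wounding and chitin had a higher share of called members than any other list apart from the families added after their values had been seen. Of 20 tested members 12 were lower (60%, against 5.6% of all genes) and 0 higher, and the median difference was -1.88. In WT plants 14 of them rose with drought (13% of all genes did). In *MtPHD6* plants 0 rose and 7 fell (11.7 and 14% of all genes). The median level of the list, relative to the WT-control mean, lay between 1.48 and 1.56 (log2) in the WT-drought libraries. It lay between 1.51 and 2.42 in *PHD6*-control and between 1.36 and 2.015 in *PHD6*-drought. By this median the list stayed above WT-control in droughted *MtPHD6* leaves, whereas *PHI-1*, *TCH4* and *TCH2* were closer to WT-control there. Besides *TCH4* and *PHI-1*, *TCH2*, a calmodulin-like calcium sensor, measured 36.9, 22.7 and 31.3 CPM in WT-control, 60.9, 39.9 and 33.6 in WT-drought, 155, 113 and 112 in *PHD6*-control and 23.7, 24.9 and 20.6 in *PHD6*-drought. The 3 *PHD6*-control libraries were above all others, while WT-drought and WT-control overlapped. Its difference was -3.02 (standard error 0.31, adjusted p = 7.26e-05). *TCH3*, another calmodulin-like gene, rose from 72.7 ± 13.9 to 333 ± 25.8 CPM in WT plants, and averaged 288 ± 68.4 CPM in *PHD6*-control and 378 ± 70.1 in *PHD6*-drought (difference -1.80).

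Many genes of that list act early in signalling and answer such stimuli within minutes. *SZF1*, a CCCH zinc finger gene, measured 21.2, 16.0 and 22.1 CPM in WT-control, 75.2, 59.3 and 60.7 in WT-drought, 294, 123 and 181 in *PHD6*-control and 47.6, 55.1 and 70.3 in *PHD6*-drought. Its *PHD6*-control libraries were above all others, and drought raised it in WT plants and lowered it in *MtPHD6* plants (difference -3.51, adjusted p = 8.52e-05). *ERF6* (-2.42) and *ERF104* (-2.18), ethylene response factors, *STZ* (-2.84), a zinc finger repressor, *CAF1a* (-1.96), an mRNA deadenylase, *CML38* (-2.82), *SYP122* (-1.66), a syntaxin, and *WRKY33* (-1.45) were also lower.

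Several AP2-type factors stood among the genes with the lowest differences. *DREB26* (AT1G21910, chromosome 1 from 7696427 to 7697831) measured 2.42, 1.49 and 2.47 CPM in WT-control, 39.6, 14.0 and 7.86 in WT-drought, 82.2, 53.3 and 79.1 in *PHD6*-control and 2.26, 5.04 and 3.89 in *PHD6*-drought. WT-drought and *PHD6*-control libraries were all above those of the other 2 groups, and *PHD6*-control was above WT-drought. The difference was -7.55 (standard error 0.74, adjusted p = 5.78e-05). AT1G33760 (-7.77) and AT1G77640 (-5.25), annotated as DNA-binding proteins of the same superfamily, changed alike, from 0.154 ± 0.0401 and 1.09 ± 0.315 CPM in WT-control. The 4 *RAV* and *TEMPRANILLO* genes, repressors of growth and flowering, were added after their values had been seen. Of these, 3 were lower (75%, against 5.6% of all genes), *RAV1* (-2.14), *RAV2* (-2.10) and *TEM1* (-1.45).

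All 4 members of the *MYB44* group, MYB factors that act in auxin, abscisic acid and stress responses, were lower (5.6% of all genes were). This group too was added after its values had been seen. *MYB44* itself, listed under its synonym *MYBR1*, averaged 41.5 ± 3.59 CPM in WT-control, 62.1 ± 25.6 in WT-drought, 162 ± 36.3 in *PHD6*-control and 27.5 ± 1.32 in *PHD6*-drought. *MYB77* averaged 14.6 ± 2.30 CPM in WT-control, 19.0 ± 7.20 in WT-drought, 76.3 ± 31.0 in *PHD6*-control and 10.2 ± 0.834 in *PHD6*-drought. The mean of *MYB73* was 40.2 ± 6.33 CPM in WT-control, 73.6 ± 19.8 in WT-drought, 186 ± 33.1 in *PHD6*-control and 37.8 ± 0.869 in *PHD6*-drought, and that of *MYB70* 13.8 ± 1.92 CPM in WT-control, 26.7 ± 11.8 in WT-drought, 65.0 ± 5.78 in *PHD6*-control and 12.1 ± 0.412 in *PHD6*-drought. Their differences lay between -3.38 and -3.15. All 4 fell with drought in *MtPHD6* plants, from a *PHD6*-control mean above that of every other group, and *MYB73* and *MYB70* rose in WT plants.

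The other genes with the lowest differences have less known roles. AT4G16563, annotated as an aspartyl protease, measured 9.90, 8.56 and 9.52 CPM in WT-control, 112, 48.7 and 50.6 in WT-drought, 57.8, 72.4 and 101 in *PHD6*-control and 13.3, 17.8 and 13.8 in *PHD6*-drought (difference -5.28, adjusted p = 2.69e-05). Its WT-drought and *PHD6*-control libraries overlapped each other and stood above the rest. AT5G52050, a MATE efflux transporter (-5.20), AT1G50040 (-5.19), AT2G27080 (-5.11) and AT2G41640, a glycosyltransferase (-4.57), also had their highest means in WT-drought and *PHD6*-control.

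Among the genes that crossed between genotypes with the smallest p, several belong to signalling or transport. *RALFL22*, a precursor of a peptide that restrains cell expansion through a receptor kinase at the cell wall, measured 25.3, 25.2 and 25.3 CPM in WT-control, 75.2, 50.0 and 55.1 in WT-drought, 70.4, 65.0 and 75.8 in *PHD6*-control and 26.6, 31.4 and 25.3 in *PHD6*-drought. The 3 WT-control libraries were nearly equal, and *PHD6*-drought was at or just above them. Its difference was -2.59 (standard error 0.19, adjusted p = 1.83e-05). *RR5*, a cytokinin response regulator, had a small but even difference of -1.33 (standard error 0.10), with 22.2 ± 0.673 CPM in WT-control, 31.3 ± 2.14 in WT-drought, 36.4 ± 0.851 in *PHD6*-control and 20.4 ± 1.01 in *PHD6*-drought. *PUP18*, a purine permease, averaged 34.5 ± 3.96 CPM in WT-control, 155 ± 33.3 in WT-drought, 191 ± 42.7 in *PHD6*-control and 73.5 ± 11.4 in *PHD6*-drought (-3.55). AT2G20670, whose function is not known, averaged 34.1 ± 7.53 CPM in WT-control, 118 ± 28.0 in WT-drought, 125 ± 4.25 in *PHD6*-control and 39.5 ± 5.80 in *PHD6*-drought (-3.46). In these genes *PHD6*-drought was near or above WT-control and below both other groups. AT1G02660, an alpha/beta hydrolase, averaged 11.5 ± 1.16 CPM in WT-control, 37.8 ± 9.33 in WT-drought, 43.8 ± 6.17 in *PHD6*-control and 17.4 ± 1.67 in *PHD6*-drought (-3.05). The mean of AT2G28120, a transporter of the major facilitator superfamily, was 2.83 ± 0.337 CPM in WT-control, 13.6 ± 2.37 in WT-drought, 12.4 ± 2.24 in *PHD6*-control and 6.68 ± 0.682 in *PHD6*-drought (-3.16).

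Genes of darkness and sugar starvation formed the other large group. Of 24 tested members 13 were lower (54.2%, against 5.6% of all genes) and 0 higher, with a median of -0.70. In WT plants 20 of them rose with drought (13% of all genes did). In *MtPHD6* plants 6 rose and 3 fell (11.7 and 14% of all genes). *DIN10*, a raffinose synthase family gene induced in the dark, measured 164, 119 and 172 CPM in WT-control, 1185, 943 and 1041 in WT-drought, 516, 664 and 884 in *PHD6*-control and 581, 660.5 and 515 in *PHD6*-drought. The WT-drought libraries were above all others, while *PHD6*-control and *PHD6*-drought overlapped at an intermediate level. Drought changed it by 2.80 in WT plants and -0.23 in *MtPHD6* plants (difference -3.03, standard error 0.27, adjusted p = 3.70e-05). *STP1*, a hexose transporter, averaged 141 ± 20.9 CPM in WT-control, 718 ± 49.7 in WT-drought, 443 ± 124 in *PHD6*-control and 468 ± 46.3 in *PHD6*-drought (-2.27). *ASN1*, the dark-induced asparagine synthetase, averaged 14.5 ± 1.64 CPM in WT-control, 59.0 ± 16.0 in WT-drought, 28.1 ± 7.74 in *PHD6*-control and 40.9 ± 8.30 in *PHD6*-drought (-1.47).

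Class II trehalose phosphate synthases are linked to the signal that reports sugar supply. Of 7 tested members, a family set apart after its values had been seen, 6 were lower and 0 higher (5.6 and 1.38% of all genes). The values chose this family, so the count is a description of it. *TPS8* measured 69.0, 61.6 and 60.7 CPM in WT-control, 211, 146 and 135 in WT-drought, 160.0, 166 and 221 in *PHD6*-control and 80.3, 87.0 and 80.3 in *PHD6*-drought. Drought and control libraries did not overlap in either genotype, and *PHD6*-drought stayed above WT-control. Its difference was -2.51 (adjusted p = 3.91e-05), while *TPS11* (-1.60, adjusted p = 3.75e-05) and *TPS9* (-1.27) rose in WT plants and were not called in *MtPHD6* plants. *TPS10* rose in both genotypes, by 1.31 and 0.63. Further called members of the starvation list were *EXL2*, *BT2* (-1.88), *AKINBETA1* (-0.71), *STP4* (-0.86), *BMY3* (-0.86) and *GDH2* (-0.63).

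Some nitrogen genes were lower too. Of 13 tested genes of the nitrate response 4 were lower (30.8%, against 5.6% of all genes) and 0 higher, with a median of -0.65. *LBD38*, a repressor of nitrate and anthocyanin genes, measured 22.9, 20.8 and 21.1 CPM in WT-control, 40.3, 42.1 and 44.3 in WT-drought, 38.3, 38.5 and 39.3 in *PHD6*-control and 31.9, 36.4 and 28.2 in *PHD6*-drought. Its libraries were tight within groups, and those of WT-control were below all others (difference -1.23, standard error 0.12, adjusted p = 6.02e-05). *LBD39* (-0.90), *BT1* (-1.93) and *NIA2* (-0.98), a nitrate reductase, were the others. The BTB and TAZ domain family, scaffold proteins that respond to sugar and nitrate, was added after its values had been seen. Of its 5 members *BT1*, *BT2*, *BT4* (-2.61) and *BT5* (-2.37) were lower (80%, against 5.6% of all genes). Each of them rose in WT plants and fell in *MtPHD6* plants (1.74% of all genes did).

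Genes of abscisic acid, the hormone of drought, were called in both directions. Of 21 tested genes of abscisic acid and dehydration response 3 were lower (14.3%, against 5.6% of all genes) and 1 higher (4.76%, against 1.38%). The median was -0.08, and over all genes 80.3% of calls were lower. In both genotypes more of the list fell with drought (10 genes in WT, 12 in *MtPHD6*) than rose (2 and 0). Over all genes, 8.59 and 14% fell and 13 and 11.7% rose. *PP2CA*, a phosphatase that holds abscisic acid signalling in check, measured 66.0, 58.2 and 57.9 CPM in WT-control, 88.8, 54.9 and 48.5 in WT-drought, 142, 128 and 128 in *PHD6*-control and 34.5, 35.7 and 32.1 in *PHD6*-drought. The groups of WT plants overlapped, and the *PHD6*-control libraries were above and the *PHD6*-drought libraries below all others. Drought changed it by 0.08 in WT plants and -1.96 in *MtPHD6* plants (difference -2.04, standard error 0.24, adjusted p = 0.000184).

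*CYP707A3*, which encodes an enzyme that breaks down abscisic acid, measured 3.55, 2.99 and 4.70 CPM in WT-control, 7.72, 6.68 and 8.45 in WT-drought, 57.3, 22.6 and 25.03 in *PHD6*-control and 6.37, 7.78 and 6.74 in *PHD6*-drought. *PHD6*-control stood above all other groups but varied widely, with replicate 1 at more than the sum of the other 2 (difference -3.35, adjusted p = 0.000462). *RD26*, a NAC factor of dehydration, averaged 6.67 ± 1.03 CPM in WT-control, 12.1 ± 5.67 in WT-drought, 13.8 ± 1.79 in *PHD6*-control and 6.63 ± 1.66 in *PHD6*-drought (-1.93, adjusted p = 0.00834), and its WT libraries overlapped. *ABI1*, the higher member, named after its values had been seen, had a difference of 0.63 and was not called without any 1 of 8 libraries (WT-control replicate 1, all 3 of WT-drought, and replicates 2 and 3 of both *PHD6* groups), and the list had 2 higher members without WT-control replicate 3. Of 9 tested abscisic acid receptors 1 was lower and 1 higher (11.1% each, against 5.6 and 1.38% of all genes). *PYL5* averaged 6.94 ± 0.840 CPM in WT-control, 43.5 ± 8.41 in WT-drought, 29.6 ± 12.4 in *PHD6*-control and 27.5 ± 8.16 in *PHD6*-drought (-2.76, adjusted p = 0.000713). *RCAR3* had a difference of 0.51 (adjusted p = 0.0343), and its call was lost without any 1 of 8 libraries, replicates 1 and 2 of both WT groups and replicates 2 and 3 of both *PHD6* groups (adjusted p = 0.0620 to 0.0881).

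Most salicylic acid and pathogen defence genes rose with drought in both genotypes. Of 22 tested members 19 rose in WT and 16 in *MtPHD6* plants (13 and 11.7% of all genes did). A lower difference was called in 2 (9.09%, against 5.6% of all genes) and a higher one in 0. Their median difference was -0.53. The median level of the list, relative to the WT-control mean, was 0.98, 0.76 and 1.90 (log2) in *PHD6*-control replicates 1, 2 and 3. *WRKY18*, a regulator of defence, measured 7.00, 9.19 and 6.195 CPM in WT-control, 82.1, 64.2 and 68.5 in WT-drought, 42.8, 34.8 and 92.0 in *PHD6*-control and 52.9, 57.5 and 63.0 in *PHD6*-drought. WT-control was below all other libraries, and *PHD6*-control replicate 3 was well above the other libraries of its group (difference -3.22, standard error 0.42, adjusted p = 0.000334). *WRKY70* averaged 100.2 ± 7.00 CPM in WT-control, 174 ± 14.2 in WT-drought, 299.5 ± 53.1 in *PHD6*-control and 218 ± 36.6 in *PHD6*-drought (-1.26, adjusted p = 0.00115). The list had 4 lower members without WT-control replicate 2, *PHD6*-control replicate 2 or *PHD6*-drought replicate 3.

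Growth hormone genes went both ways. Of 19 tested genes of auxin, shade and elongation growth 2 were lower and 2 higher (10.5% each, against 5.6 and 1.38% of all genes). The median was 0.09. Without WT-control replicate 1 there were 4 lower members. *DWF4*, a rate-limiting enzyme of brassinosteroid synthesis, measured 28.0, 19.5 and 26.1 CPM in WT-control, 38.8, 29.2 and 32.3 in WT-drought, 37.9, 41.2 and 41.7 in *PHD6*-control and 17.64, 19.1 and 14.5 in *PHD6*-drought. It rose in WT plants and fell in *MtPHD6* plants without overlap between the libraries (difference -1.68, standard error 0.20, adjusted p = 0.000194). *IAA6*, an auxin response repressor, averaged 6.01 ± 2.31 CPM in WT-control, 3.36 ± 1.58 in WT-drought, 13.7 ± 3.95 in *PHD6*-control and 1.42 ± 0.350 in *PHD6*-drought (-2.42, adjusted p = 0.00964).

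*IAA29*, another repressor of the same family, and *PRE1*, which promotes cell elongation, were the higher members. *IAA29* measured 34.6, 25.6 and 18.8 CPM in WT-control, 2.30, 3.11 and 4.30 in WT-drought, 20.4, 15.2 and 6.78 in *PHD6*-control and 5.81, 10.2 and 8.71 in *PHD6*-drought. All WT-drought libraries were below all others, and the groups of *MtPHD6* plants overlapped. The difference was 2.26 (adjusted p = 0.0186), with adjusted p = 0.0610, 0.0509 and 0.0554 without WT-drought replicate 1, WT-drought replicate 2 and *PHD6*-drought replicate 2. *PRE1* averaged 19.7 ± 7.09 CPM in WT-control, 3.99 ± 1.41 in WT-drought, 5.73 ± 3.53 in *PHD6*-control and 7.10 ± 2.06 in *PHD6*-drought (2.62, adjusted p = 0.0189), with adjusted p = 0.0554 and 0.0556 without WT-drought replicate 1 and *PHD6*-drought replicate 2.

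*EXPA1* (AT1G69530, chromosome 1 from 26141726 to 26143538), the 1 expansin with a higher response, fell in WT plants and rose in *MtPHD6* plants. It measured 340.5, 263 and 266 CPM in WT-control, 115, 141 and 159.8 in WT-drought, 177, 118 and 109 in *PHD6*-control and 255, 336 and 351 in *PHD6*-drought. Drought libraries were all below control libraries in WT plants and all above them in *MtPHD6* plants. Its response was -1.06 in WT plants and 1.22 in *MtPHD6* plants, and the difference was 2.28 (standard error 0.27, adjusted p = 0.000181). EXPA1 protein loosens the walls of growing leaf cells and of guard cells.

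The remaining genes with the highest differences were expressed at low to moderate levels. *ASG8*, which encodes an uncharacterized protein, measured 36.5, 26.8 and 33.6 CPM in WT-control, 12.02, 17.63 and 21.6 in WT-drought, 13.8, 10.4 and 10.3 in *PHD6*-control and 24.2, 28.5 and 25.5 in *PHD6*-drought. Its drought and control libraries did not overlap in either genotype, with WT falling and *MtPHD6* rising (difference 2.099, adjusted p = 0.000278). AT3G44450 (2.05), AT3G45210 (1.84) and *ERF15* (2.19), an ethylene response factor, crossed in the same way. AT1G16500 (2.11), AT4G29110 (2.16) and AT1G75580 (2.19), a SAUR-like auxin response gene, rose in *MtPHD6* plants and were not called in WT plants. AT1G51440 (1.85) and *G3Pp1* (1.78), a transporter of the phosphate starvation response, fell in WT plants and were not called in *MtPHD6* plants.

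**Figure D4:**
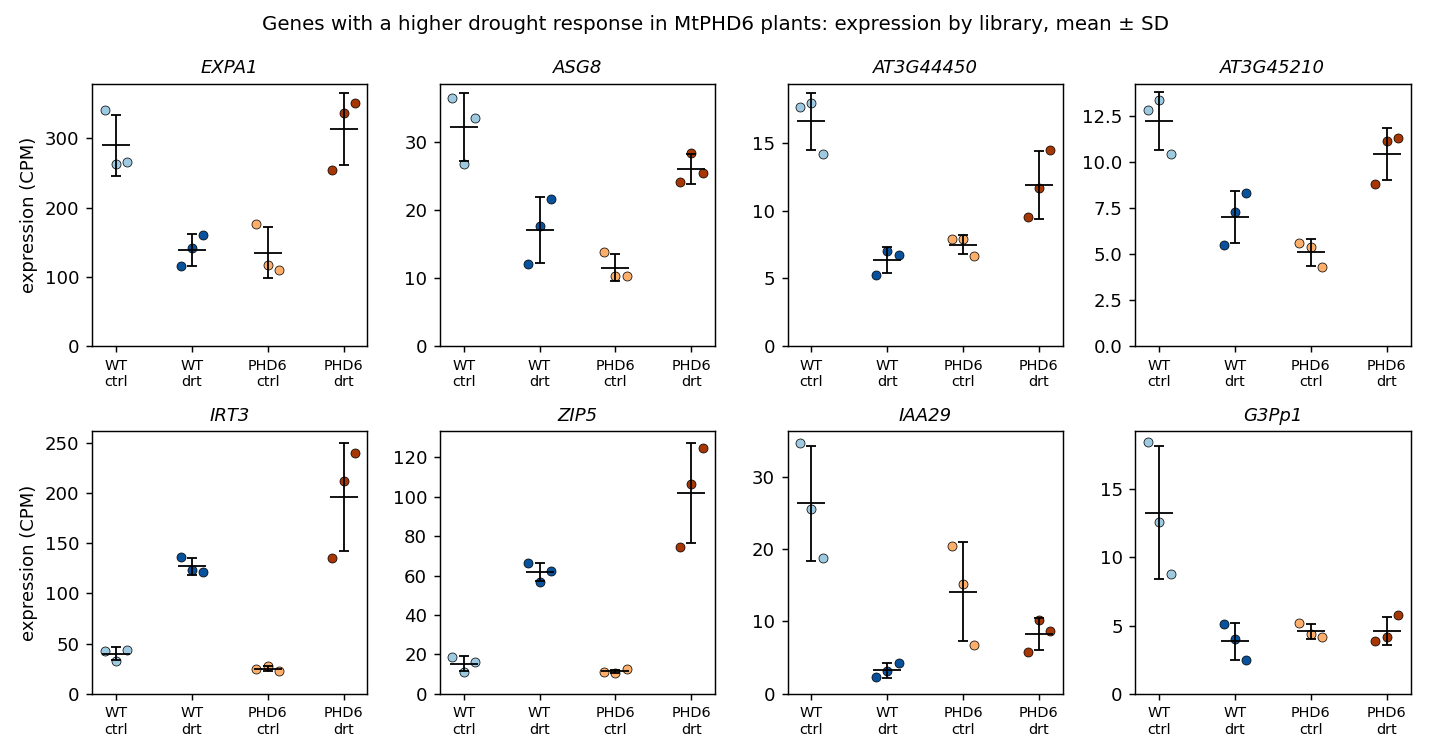
Expression (CPM, y axis from 0) of 8 genes with a higher drought response in *MtPHD6* plants, in each library (points) of the 4 groups (x axis; ctrl, control; drt, drought), with the mean and SD of 3 libraries (lines). *EXPA1*, *ASG8*, AT3G44450 and AT3G45210 fell in WT plants and rose in *MtPHD6* plants, and *IRT3* and *ZIP5* rose in both, further in *MtPHD6* plants.

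Zinc deficiency genes were the only list with more higher than lower members among those with at least 3 calls. Of 11 tested, 4 were higher (36.4%, against 1.38% of all genes) and 0 lower, with a median of 0.94. These encode transporters that bring zinc into the cell. Drought raised 7 of the list in WT and 8 in *MtPHD6* plants (13 and 11.7% of all genes). *IRT3* measured 43.0, 32.3 and 43.9 CPM in WT-control, 137, 123 and 121 in WT-drought, 24.4, 27.7 and 22.6 in *PHD6*-control and 136, 213 and 240.0 in *PHD6*-drought. It rose in both genotypes, by 1.68 in WT and 2.98 in *MtPHD6* plants, from *PHD6*-control libraries that were all below WT-control (difference 1.30, standard error 0.25, adjusted p = 0.00647). *ZIP4* averaged 13.9 ± 0.726 CPM in WT-control, 74.8 ± 2.64 in WT-drought, 10.7 ± 0.379 in *PHD6*-control and 122 ± 39.3 in *PHD6*-drought (1.09). *ZIP1* averaged 7.85 ± 1.24 CPM in WT-control, 10.9 ± 0.898 in WT-drought, 6.44 ± 0.571 in *PHD6*-control and 17.2 ± 1.63 in *PHD6*-drought (0.94, adjusted p = 0.00602). In both genes the *PHD6*-drought libraries were above all others and the *PHD6*-control libraries below. *ZIP5* averaged 15.2 ± 3.86 CPM in WT-control, 61.7 ± 4.66 in WT-drought, 11.3 ± 0.912 in *PHD6*-control and 102 ± 25.5 in *PHD6*-drought (1.14, adjusted p = 0.0215). *ZIP5* lost its call without any 1 of 6 libraries (adjusted p = 0.0526 to 0.0576). The count of the list was 2 without any 1 of 5 of them: WT-control replicate 3, WT-drought replicate 2, *PHD6*-control replicates 1 and 2, and *PHD6*-drought replicate 2. The other was WT-control replicate 1.

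In each of the lists that follow at most 2 members were called, beside 5.6% lower and 1.38% higher over all genes tested. Of 56 photosystem and electron transport genes 1 was lower, *PETE1*, a plastocyanin, with 268 ± 29.4 CPM in WT-control, 337 ± 19.3 in WT-drought, 308 ± 4.07 in *PHD6*-control and 269.9 ± 23.6 in *PHD6*-drought (-0.52, adjusted p = 0.0267), and the median was -0.18. Its call was lost without any 1 of 7 libraries: WT-control replicate 3, WT-drought replicate 1, all 3 of *PHD6*-control, and *PHD6*-drought replicates 1 and 3 (adjusted p = 0.0538 to 0.0809). With drought, 8 of the 56 fell and 1 rose in WT plants, and 21 fell and 0 rose in *MtPHD6* plants. Over all genes, 8.59 and 14% fell and 13 and 11.7% rose in WT and *MtPHD6* plants. Of 52 genes taken as cytosolic ribosomal proteins 1 was higher, *RPS10* (0.35, adjusted p = 0.0481), which encodes a protein of the mitochondrial ribosome and lost its call without any 1 of the 12 libraries. Of 19 clock genes 1 was lower (5.26%, near the share over all genes), *PCL1* (also *LUX*), an evening complex gene (-0.60, adjusted p = 0.00536). Of 18 jasmonate genes (median -0.08) 1 was lower (5.56%, also near that share), *JAZ6* (-1.07, adjusted p = 0.00514). There were 2 lower jasmonate genes without WT-control replicate 1, *PHD6*-control replicate 1 or 2, or *PHD6*-drought replicate 3. Of 11 phosphate starvation genes (median -0.31) *MGD2*, a galactolipid synthase, was lower (-1.01) and *G3Pp1* higher, with 2 higher genes without *PHD6*-drought replicate 1.

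Of 12 genes of the CBF cold pathway *COR47*, a dehydrin, was lower (-1.01, adjusted p = 0.0176, and 0.0519 without WT-drought replicate 1) and *BBX29*, a zinc finger gene named after its values had been seen, higher (2.25). The lower count was 5 without *PHD6*-control replicate 3, the higher count 2 without *PHD6*-control replicate 1, and the median -0.63. Of 14 flavonoid genes 2 were higher, *UGT78D1*, a flavonol glycosyltransferase (0.77, adjusted p = 0.00836), and *TT5*, chalcone isomerase (0.83, adjusted p = 0.0259), whose call was lost without any 1 of 7 libraries (WT-control and WT-drought replicates 1 and 2, *PHD6*-control replicate 3, *PHD6*-drought replicates 1 and 3; adjusted p = 0.0544 to 0.0739). Of 16 aliphatic glucosinolate genes *MYB28*, their main activator, was higher (0.70, adjusted p = 0.0286), with a call that was lost without any 1 of 6 libraries (WT-control replicates 1 and 3, WT-drought replicates 1 and 2, *PHD6*-drought replicates 2 and 3; adjusted p = 0.0545 to 0.0813). Of 15 chaperone genes *HSFA2*, a heat shock factor named after its values had been seen, was higher (2.16, adjusted p = 0.0494), and the list had 0 higher members without any 1 of 10 libraries, all but WT-control replicate 3 and *PHD6*-drought replicate 1.

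**Figure D5:**
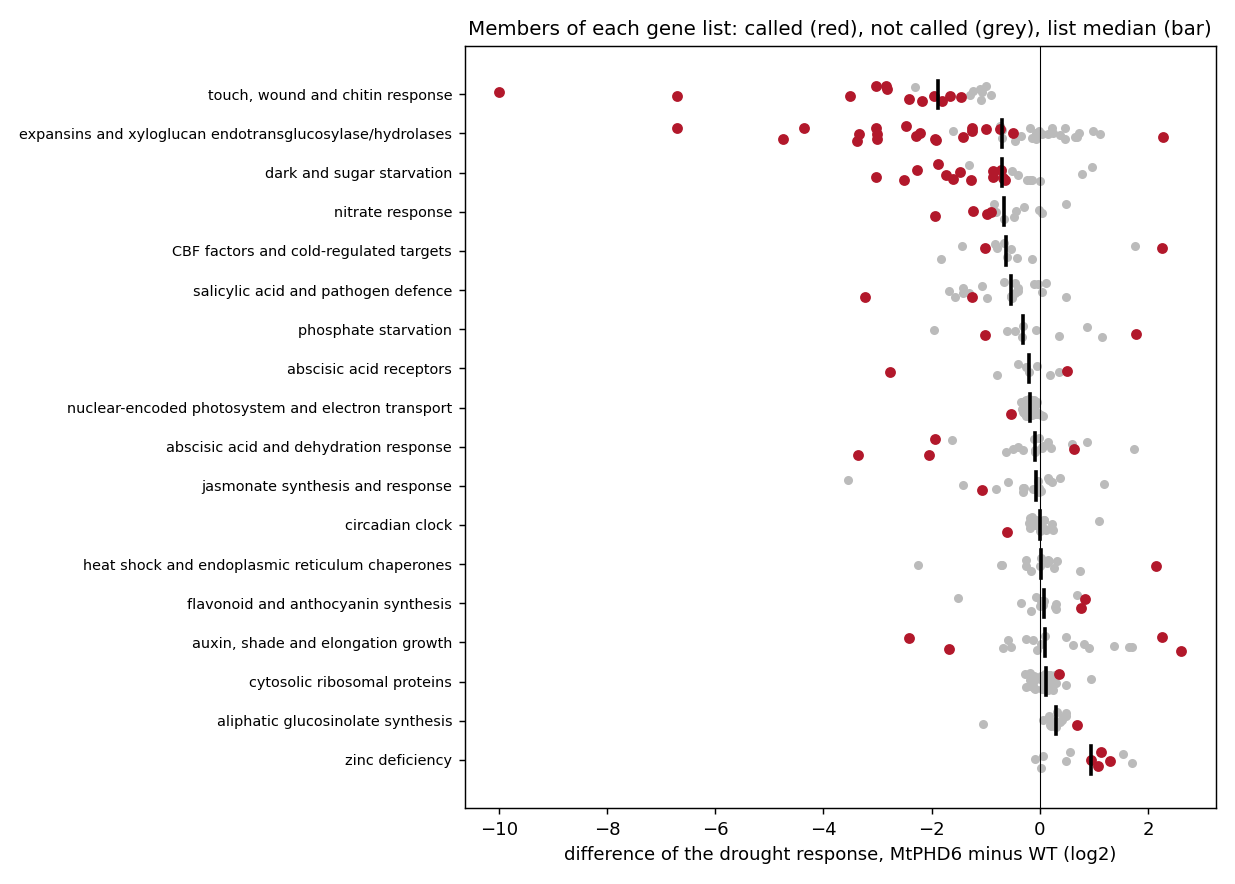
Difference of the drought response (log2, *MtPHD6* minus WT; x axis) for each tested member of 18 gene lists (y axis, ordered by median); red points were called, grey points were not, and black bars are list medians. Touch, wound and chitin genes lie at the left with a median of -1.88, wall and starvation genes reach far to the left, and zinc deficiency genes lie at the right with a median of 0.94.

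Genes that the paper discusses from these libraries were chosen on the same samples and are no independent sample. Of 20 tested, 8 were lower (40%, against 5.6% of all genes) and 1 higher (5%, against 1.38%), with a median of -0.85. There were 2 higher without WT-control replicate 3. Besides genes given above they included *ZF2* (-1.40) and the zinc finger gene AT5G44260 (-1.89), both lower.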

How the data were processed

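Poly(A) RNA of rosette leaves was sequenced in 12 libraries, 3 in each of WT-control, WT-drought, *PHD6*-control and *PHD6*-drought. The authors deposited a single table of raw counts per gene; their processing notes name HISAT2 2.0.5, featureCounts 1.5.0-p3 and DESeq2 1.16.1, and the genome build and strand setting are not given in the sources used here. Of its 38082 entries, 2021 without a gene name, which held 0.387 to 0.463% of the counts, were left out, and the other 36061 all matched the RefSeq annotation TAIR10.1.

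Counts were fitted with edgeR 4.0.16 (R 4.3.3) in a quasi-likelihood model with 1 coefficient per group, after TMM scaling and a filter on low counts (filterByExpr, minimum count 10) that kept 19681 genes. The contrast was (*PHD6*-drought minus *PHD6*-control) minus (WT-drought minus WT-control). Standard errors are on the log2 scale. P-values were adjusted by the Benjamini-Hochberg method over all genes tested, with 0.05 as the threshold. They set each difference against the spread between the libraries of a group. That spread need not be the one between plants or transgenic lines. The code was tested on simulated data.

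Genes were named by rule among called genes whose group mean reached 5 CPM in 1 group or more: the 12 lowest and 12 highest differences, the 8 genes of smallest p with opposite drought calls, and, per list, no more than 3 called members, by p. Other list members were named after their values had been seen. The comparison and the lists were chosen with earlier results of these data known. Alternatives were other scalings, limma 3.58.1 (voom with library quality weights), DESeq2 1.42.0, other filters, a replicate block, other thresholds and leaving out libraries.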

Additional observations from a re-analysis of the deposited data

Results flagged for a closer look

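The 1102 genes with a lower and the 271 with a higher drought response in *MtPHD6* plants are listed here because the test of the difference between the genotypes called them (edgeR, adjusted p under 0.05). The same holds for the 8 genes with opposite drought calls and the smallest p, whose differences (log2, *MtPHD6* minus WT) were -4.75 for *EXLA1*, -2.59 for *RALFL22*, -3.46 for AT2G20670, -2.65 for *EXL3*, -3.55 for *PUP18*, -3.16 for AT2G28120, -1.33 for *RR5* and -3.05 for AT1G02660.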

How the results depend on the processing

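Of the 1373 calls, 635 lower and 70 higher genes were called under all 21 alternatives that kept the threshold. None of the 61 genes named by rule changed direction. The direction of the other genes named above was not followed across the alternatives. Of the 61, 50 were called under every alternative in which they were tested. AT1G33760 and AT1G77640 were tested in 20 of the 21, since both fell under the filter of 1 CPM in all 12 libraries.

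Upper-quartile scaling gave 491 higher genes, of which 218 fell in WT plants only, 184 rose in *MtPHD6* plants only and 54 did both. Voom with library quality weights gave 521, 207, 206 and 63 in the same order. Leaving out both *PHD6*-control replicate 3 and WT-drought replicate 1, chosen for their likeness, gave 691 lower and 82 higher genes, with 209 lower genes that rose in WT and fell in *MtPHD6* plants, 223 that rose in WT only, and 28, 31 and 17 higher genes in the order above. A fold over 2 with an unadjusted p under 0.05 gave 725 lower genes, with 71 that rose in WT and fell in *MtPHD6* plants, 241 that rose in WT only and 186 that fell in *MtPHD6* only, and 56, 40 and 4 higher genes. The cause of these shifts was not tested, except that leaving out libraries leaves fewer samples.

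Leaving out each library in turn gave 843 to 1144 lower and 140 to 325 higher genes. The patterns ranged from 257 to 335 (rose in WT, fell in *MtPHD6*), 292 to 476 (rose in WT only), 218 to 351 (fell in *MtPHD6* only), 55 to 128 (higher, fell in WT only), 58 to 142 (higher, rose in *MtPHD6* only) and 20 to 40 (higher, both). Over all lists, 62 members were lower (50 to 69) and 16 higher (7 to 17). The 16 became 7 without WT-drought replicate 1 or 2 or *PHD6*-drought replicate 2, 9 without WT-control replicate 1, 10 without *PHD6*-control replicate 2 or 3, and 7 without both libraries named above. *UGT78D1* (adjusted p = 0.0696) and *ZIP1* (0.0504) lost their calls without both.

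With the replicate number as a block, 986 genes were lower and 207 higher, of which 974 and 201 were among the calls without it. *RCAR3* (adjusted p = 0.0615), *PETE1* (0.0623) and *RPS10* (0.0874) lost their calls. After the mean of its group was subtracted from each gene, same-numbered libraries correlated above 0.1 in all 3 pairs of WT-control and WT-drought (0.142 to 0.348). Between *PHD6*-control and *PHD6*-drought the values were -0.136, 0.164 and 0.281, and between other groups they went down to -0.52. The numbers were therefore not taken to pair the 12 libraries.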
